A study of Danio rerio with 19 samples.

Results

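Injured *yap1* Crispants were compared with injured WT in tail fins of zebrafish (*Danio rerio*), taken 24 h after severe tail fin injury. Members were chosen by their labels, as the 4 libraries of injured *yap1* Crispants and the 3 libraries of injured WT, 7 of the 19 libraries in the series. Crispants are embryos injected at the one-cell stage with Cas9 protein and a pair of guide RNAs, here against *yap1*. They are mosaic F0 animals and not a stable line. All fish were of the WIK strain, those injured were cut at 3 dpf, and all were 4 dpf old when the tail was collected at the start of the pigment gap, and each library pooled 50 embryos. Whether the WT embryos that were sequenced had been injected is not stated in the sources used here. The other 12 libraries are uninjured *yap1* Crispants, injured and uninjured *wwtr1* Crispants and uninjured WT, with 3 libraries each. Bulk RNAseq was read as counts per gene, and levels are given as CPM, counts relative to the TMM-scaled library size. Gene symbols come from a name table that often carries the symbol of the human ortholog, so *CCN2* stands for *ctgfa*, *ccn2b* for *ctgfb* and *CCN1* for *cyr61*.

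Yap1 and its paralogue Taz, encoded by *wwtr1*, are transcriptional co-activators that bind DNA through TEAD factors. The Hippo pathway holds them back: Nf2 and other upstream proteins promote the Lats kinases, which phosphorylate Yap and Taz and keep them in the cytoplasm. In the nucleus they drive genes such as *cyr61* and *ctgfa*, and they are known for roles in tissue growth, wound healing and fin regeneration. After a severe cut the larval tail fin loses the end of the notochord, the wound is covered by epidermis and invaded by leukocytes, and a proliferating mesenchyme rebuilds the fin. The comparison addresses which genes differ between genotypes at this stage of repair.

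Library totals of the 7 libraries ran from 33560561 to 73112859 counts, and between 14951 and 15780 genes reached 1 CPM. A floor of 3 counts lay between 0.0367 and 0.0965 CPM. No pair of libraries in a group agreed within sampling noise. Replicate 4 of the injured *yap1* Crispants stood apart from the other 3, with lens crystallin transcripts at a summed 361 CPM where the other 6 injured *yap1* and WT libraries had between 0.169 and 0.857 CPM. It also had the lowest weight of all 19 libraries, 0.255, when limma's voom estimated sample quality, and the next lowest was replicate 1 of the same group with 0.363. Counts and main lists are therefore given with and without replicate 4, and its own value stands beside those of the other libraries. Among the injured WT, replicate 1 held more notochord and skeletal muscle RNA than replicates 2 and 3, so a number of values are also given without it.

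A DEG was defined by an adjusted p below 0.05 together with a log2 fold change beyond 1 in either direction. No gene met this in edgeR's quasi-likelihood test of injured *yap1* Crispants against injured WT. That is 0 of 20979 genes tested (0% called), and the smallest adjusted p was 0.204. At an unadjusted p under 0.05 there were 1731 genes (8.25%), of which 1346 were higher (6.42%) and 385 lower (1.84%). All 4 *yap1* libraries lay above all 3 WT libraries for 669 genes (3.19%), and below them for 517 genes (2.46%). Without replicate 4 the call was again 0, of 20966 genes, with 1672 genes (7.97%) at an unadjusted p under 0.05, 1318 higher (6.29%) and 354 lower (1.69%). The groups then did not overlap for 1375 genes above WT (6.56%) and 1014 below (4.84%). Fewer libraries separate more often by order alone, so these shares cannot be compared directly with those from all 4 *yap1* libraries. In groups of this size order alone separates shares of genes near these. A lack of overlap is therefore given below as a description and not as a test.

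The count of DEGs depended on the tool and on 1 WT library. DESeq2, fitted on all libraries, called 162 higher genes (0.574% of 28239 tested) and 3 lower genes (0.0106%), and limma's voom called 0. Of the 162, 21 carried a crystallin symbol and 58 were called again by DESeq2 without replicate 4, which gave 89 higher genes (0.315%) and 6 lower genes (0.0213%). The 3 lower genes were *zgc:172133*, *ADRA2A*, an adrenergic receptor, and *TPH1*, an enzyme of serotonin synthesis, named here after their values were seen. Voom without replicate 4 called 8 higher genes (0.0382%) and 1 lower gene (0.00477%). DESeq2 on only these groups called 53 higher genes (0.199%) and 3 lower genes (0.0113%), or 90 (0.34%) and 15 (0.0566%) without replicate 4. With WT replicate 1 left out, edgeR called 37 higher genes (0.172%) and 0 lower genes, of which 13 were among the 162. Leaving out WT replicate 1 as well as *yap1* replicate 4 gave 71 higher genes and 0 lower genes. WT replicate 1 was left out for its notochord and muscle level. *yap1* replicate 1, the highest of its group for both, stayed in, so this choice favoured higher genes. In what follows, adjusted p-values come from edgeR unless DESeq2 is named and every fold change is injured *yap1* Crispants over injured WT on the log2 scale, with its SE where one follows.

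The targeted transcript *yap1* was at 136, 260.4, 193 and 182 CPM in injured *yap1* Crispants, against 287, 249.6 and 233 CPM in injured WT. The groups overlapped through *yap1* replicate 2, and the log2 fold change was -0.41 ± 0.26 (adjusted p = 0.72). Small insertions and deletions in a coding region need not lower the count of a transcript, so this level does not check the label. Its paralogue *wwtr1* was at 2.65, 1.52, 0.972 and 4.47 CPM in *yap1* Crispants, against 1.16, 0.764 and 0.523 CPM in WT, with a log2 fold change of 1.55 ± 0.55 (adjusted p = 0.46) and of 1.07 without replicate 4. Its groups overlapped through *yap1* replicate 3.

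Of the upstream genes targeted in the screen, the kinase gene *lats1* was at 18.7, 16.5, 14.1 and 49.7 CPM in *yap1* Crispants, against 9.69, 10.5 and 20.1 CPM in WT. Replicate 4 set its fold change, which was 0.88 ± 0.38 with that library (adjusted p = 0.554) and 0.29 without it. The other kinase gene *lats2* (-0.11) and both genes for the upstream protein Nf2, *nf2a* (-0.32) and *nf2b* (-0.06), had overlapping groups. *nf2b* stood at 0.10 without replicate 4, so its direction is not set. Over the list of 25 Hippo pathway components the median was -0.05, beside 0.01 over all genes tested, and 3 of 25 were higher and 0 lower at an unadjusted p under 0.05, where 6.42% of all genes were higher. These were *wwtr1*, *lats1* and *TEAD1* (ENSDARG00000059483). Without replicate 4 there was 1 higher and 0 lower. *TEAD1*, a DNA-binding partner of Yap and Taz, was the single component with no overlap, at 21.2, 11.9, 12.2 and 22.7 CPM in *yap1* Crispants against 11.0, 6.80 and 9.16 CPM in WT (log2 0.92).

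Target genes of Yap and Taz were not lower as a list in *yap1* Crispants. The secreted matrix protein gene *cyr61* was at 73.9, 21.5, 13.3 and 92.5 CPM in injured *yap1* Crispants, against 18.4, 11.0 and 9.33 CPM in injured WT. The difference was carried by *yap1* replicates 1 and 4, and replicate 3 lay within the WT range. Its log2 fold change was 1.96 ± 0.57 (adjusted p = 0.359), and 1.49 without replicate 4 (adjusted p = 0.498). DESeq2 called it on all libraries, with an adjusted p of 0.0323, and not without replicate 4. *ctgfa*, which encodes a connective tissue growth factor, was at 51.9, 44.7, 44.5 and 22.9 CPM against 35.9, 19.5 and 22.6 CPM in WT. Its groups separated only once replicate 4 was left out, at a log2 fold change of 0.86, against 0.66 ± 0.30 with it (adjusted p = 0.585). *ctgfb* was at 20.3, 7.27, 10.5 and 8.24 CPM, against 10.9, 9.00 and 7.94 CPM in WT, with overlapping groups.

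**Figure D1:**
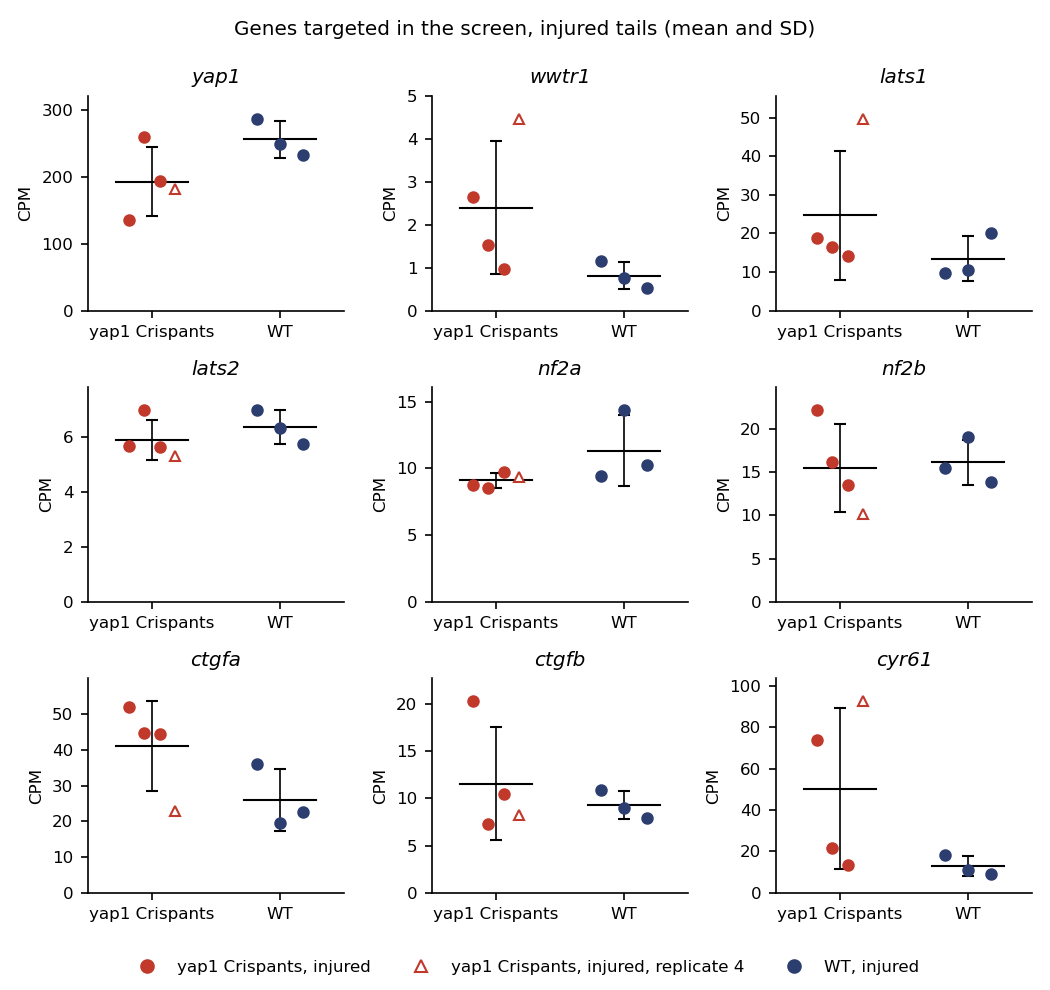
CPM of the 9 genes targeted in the screen in each injured library, with *yap1* Crispants left and WT right in each panel. Points are libraries, the open triangle is *yap1* replicate 4, the long line is the mean and the bar 1 SD. The groups overlap in every panel, and replicate 4 is the highest *yap1* library for *wwtr1* (4.47 CPM), *lats1* (49.7 CPM) and *cyr61* (92.5 CPM) and the lowest for *ctgfa* (22.9 CPM).

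Across the 25 target genes of Yap and Taz that were tested, the median log2 fold change was 0.09 with all libraries, 0.07 without replicate 4 and 0.18 without WT replicate 1. The list's median in injured *wwtr1* Crispants against the same WT libraries was 0.22. With all libraries 7 were higher and 0 lower at an unadjusted p under 0.05, beside 6.42% and 1.84% of all genes, and without replicate 4 there were 6 higher and 2 lower, beside 6.29% and 1.69%. The 7 were *cyr61*, its relatives *ccn1l1* and *ccn1l2*, *ctgfa*, the receptor tyrosine kinase gene *AXL*, *CDC42EP3*, an effector of the GTPase Cdc42, and *MYC* (ENSDARG00000007241), a growth-promoting transcription factor. Of these only *ccn1l2* had no overlap, at 22.0, 21.7, 10.5 and 11.8 CPM in *yap1* Crispants against 8.77, 4.07 and 8.21 CPM in WT (log2 1.24 ± 0.35, adjusted p = 0.341). *ANKRD1* (ENSDARG00000076192), a muscle ankyrin repeat protein and a target of Yap in mammalian cells, went the other way in replicates 1 to 3. It was at 16.6, 18.3 and 9.67 CPM in those *yap1* libraries and at 65.0 CPM in replicate 4, against 30.3, 26.8 and 31.7 CPM in WT. Its log2 fold change was -0.99 without replicate 4 (adjusted p = 0.369) and -0.11 with it, a value whose sign turned when any of the other *yap1* replicates was left out.

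Among genes with a mean of at least 1 CPM, 477 were higher and 386 lower in injured *yap1* Crispants without overlap between the groups. Over all genes tested, without that minimum, 3.19% were higher and 2.46% lower without overlap. Of the 477 and the 386, the 10 with the smallest p in each direction follow. None passed the adjusted threshold, and the 10 higher ones all had an adjusted p of 0.204. The growth factor gene *egf* was at 15.2, 11.3, 7.42 and 8.05 CPM in *yap1* Crispants, against 6.12, 3.31 and 2.96 CPM in WT (log2 1.35 ± 0.26). *MDK* (ENSDARG00000020708), which encodes midkine, a heparin-binding growth factor, was at 45.6, 40.7, 37.1 and 66.9 CPM against 25.1, 22.98 and 22.3 CPM in WT (log2 1.02). The WT libraries lay close together for *MDK*, while for *egf* WT replicate 1 was the nearest to the *yap1* libraries. *cldn29*, a claudin of tight junctions, was at 14.6, 16.2, 13.0 and 17.7 CPM against 8.86, 7.05 and 8.86 CPM in WT (log2 0.90 ± 0.17). The most abundant of the 10 was *si:dkeyp-110a12.4*, at 176, 125, 145 and 141.5 CPM against 80.6, 66.6 and 63.7 CPM in WT (log2 1.06 ± 0.19).

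A pair of genes of cilia stood among the 10. *CFAP52*, a protein of cilia and flagella, was at 9.50, 5.07, 4.86 and 10.8 CPM in *yap1* Crispants, against 3.32, 2.21 and 1.87 CPM in WT. *crocc2*, a relative of the ciliary rootlet protein, was at 5.14, 1.204, 2.28 and 3.28 CPM against 0.299, 0.791 and 0.373 CPM in WT. Genes of cell adhesion and ion transport were present too. *CLSTN2* (ENSDARG00000060637), a calsyntenin of synapses, was at 15.5, 7.01, 5.71 and 16.5 CPM against 3.90, 1.70 and 1.47 CPM in WT (log2 2.24). *CTNNA2*, an alpha-catenin that links cadherins to actin, was at 2.72, 2.68, 4.99 and 2.61 CPM against 1.21, 0.962 and 1.07 CPM in WT. The *yap1* libraries of *ATP1B4*, a member of the sodium pump beta subunit family, were close together at 5.85, 4.48, 5.22 and 5.37 CPM, against 2.43, 1.42 and 1.84 CPM in WT (log2 1.46). *PPP1R1C*, an inhibitor of protein phosphatase 1, completed the 10 with a log2 fold change of 1.92.

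**Figure D2:**
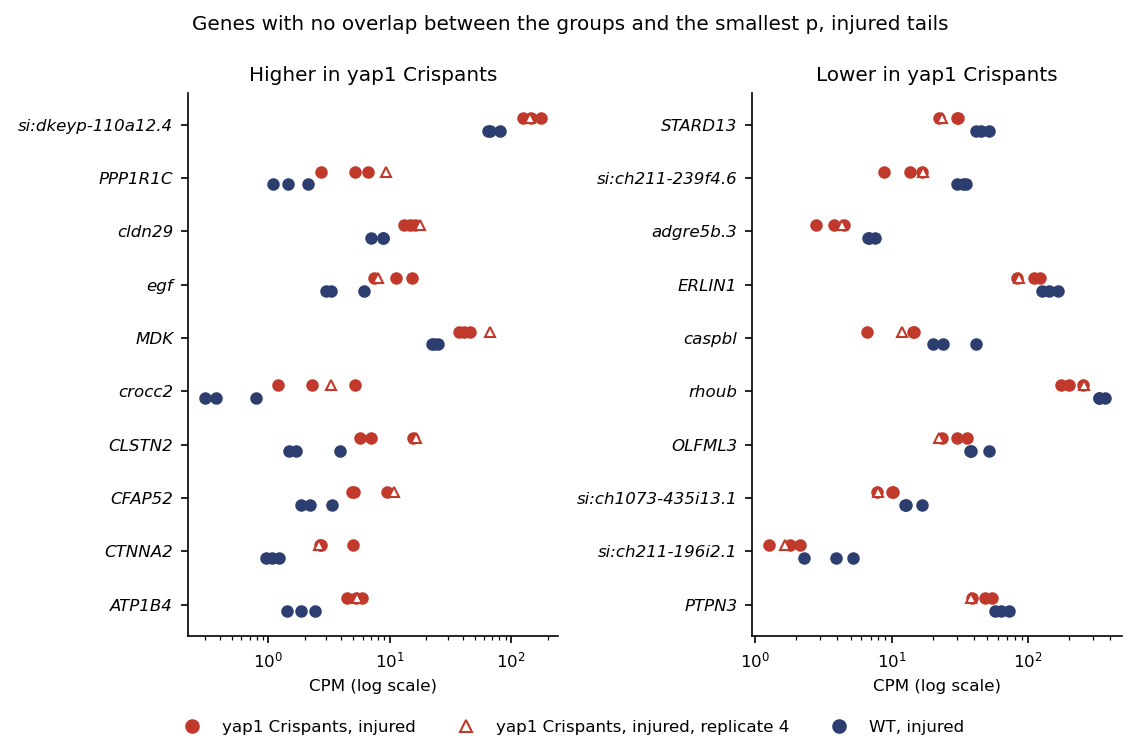
CPM on a log axis of the 10 higher and the 10 lower genes with the smallest p of all genes with separate groups, in the injured libraries. In each row the *yap1* Crispants are drawn above WT, each point is 1 library and the open triangle is *yap1* replicate 4. The rows were chosen for this separation, and all fold changes shown had an adjusted p of at least 0.204.

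The 10 lower genes had smaller differences, with log2 fold changes between -1.27 and -0.51. *STARD13* (ENSDARG00000098954), a GTPase-activating protein, was at 30.3, 22.4, 30.8 and 23.3 CPM in *yap1* Crispants, against 41.6, 44.9 and 51.7 CPM in WT (log2 -0.79, adjusted p = 0.308). *rhoub*, a small GTPase, was at 174.5, 253, 201 and 259.5 CPM against 335, 331 and 368 CPM in WT (log2 -0.63). In uninjured tails of *yap1* Crispants and WT *rhoub* lay between 62.6 and 97.1 CPM, so both injured groups were above both uninjured groups. *caspbl*, a caspase of the inflammatory type in zebrafish, was at 6.56, 14.7, 14.4 and 11.9 CPM against 20.2, 23.7 and 41.7 CPM in WT (log2 -1.27). The adhesion receptor gene *adgre5b.3* was at 2.80, 3.80, 4.504 and 4.31 CPM against 6.70, 7.603 and 6.87 CPM in WT (log2 -0.88). *si:ch211-239f4.6* was at 8.84, 13.7, 16.6 and 17.0 CPM against 30.2, 33.4 and 35.12 CPM in WT (log2 -1.23). *ERLIN1*, a lipid raft protein of the endoplasmic reticulum, *OLFML3* (ENSDARG00000062171), the phosphatase gene *PTPN3*, *si:ch1073-435i13.1* and *si:ch211-196i2.1* were the other members.

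Leaving out replicate 4 replaced 5 of the higher and 7 of the lower genes. Those that entered had an adjusted p between 0.28 and 0.377, and for all of them but *ADGRD1* and *SLIT1* replicate 4 lay inside the WT range or beyond it. *SPTB*, a spectrin of the membrane skeleton, was at 32.5, 22.6 and 20.2 CPM in *yap1* replicates 1 to 3 and 7.02 CPM in replicate 4, against 9.79, 9.42 and 4.68 CPM in WT (log2 1.65). The chloride channel gene *CFTR* was at 14.9, 15.3 and 8.85 CPM and at 3.604 CPM in replicate 4, against 6.17, 3.84 and 4.33 CPM in WT (log2 1.45). *ADGRD1*, an adhesion receptor, the protocadherin gene *pcdh1g32* and *SLIT1* (ENSDARG00000099446), an axon guidance ligand, entered as well. On the lower side *zgc:195173*, *ANKRD1*, *BAIAP2L1* and a gene with the ID ENSDARG00000098899 entered, as did the following 3. *mb*, which encodes the oxygen carrier myoglobin, was at 10.2, 19.7 and 18.5 CPM and at 34.9 CPM in replicate 4, against 25.4, 36.0 and 37.8 CPM in WT (log2 -1.04). *tmsb2*, an actin-binding thymosin, was at 4.26, 6.49 and 6.07 CPM and at 16.4 CPM in replicate 4, against 14.8, 11.9 and 12.5 CPM in WT (log2 -1.22). *PAMR1* (ENSDARG00000103184) was at 12.0, 11.3 and 8.21 CPM and at 39.1 CPM in replicate 4, against 17.9, 18.8 and 20.7 CPM in WT (log2 -0.87).

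For several of the higher genes the uninjured tails stood differently. The injured libraries that chose *egf*, *MDK* and *ATP1B4* also enter this difference, so it is given for them as a description. *egf* was at 27.7, 20.8 and 24.8 CPM in uninjured *yap1* Crispants, against 26.9, 32.4 and 30.2 CPM in uninjured WT, so every injured library of both genotypes lay below every uninjured one. The difference of its *yap1* effect between injured and uninjured tails was 1.64 on the log2 scale. *ATP1B4* was at 2.84, 2.01 and 2.22 CPM in uninjured *yap1* Crispants, against 3.95, 5.58 and 5.94 CPM in uninjured WT. Its order was thus the opposite of that in injured tails, with a difference of 2.59. *MDK* did not separate the uninjured genotypes, at 41.0, 25.5 and 38.5 CPM in *yap1* Crispants against 40.3, 34.7 and 38.1 CPM in WT. *ctgfa* was at 57.2, 51.0 and 39.8 CPM in uninjured *yap1* Crispants, against 58.7, 89.5 and 66.5 CPM in uninjured WT, with a difference of 1.196 (unadjusted p = 0.0139).

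No gene passed the thresholds for this difference of effects across all genes in edgeR, with 0 of 20979 called and 1711 (8.16%) at an unadjusted p under 0.05. The smallest adjusted p was 0.101. DESeq2 called 49 positive (0.174%) and 84 negative (0.297%) differences and voom called 6 (0.0286%) and 28 (0.133%). Without replicate 4 edgeR again called 0, with 2104 genes (10.0%) at an unadjusted p under 0.05, and without uninjured WT replicate 3 it called 266, of which 261 were negative.

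For *egf* and *MDK* the injured *wwtr1* Crispants lay within or near the range of the injured *yap1* Crispants. *egf* was at 10.5, 9.64 and 8.73 CPM and *MDK* at 43.8, 45.6 and 37.9 CPM in injured *wwtr1* Crispants, all above the injured WT libraries given above. These values share the same 3 WT libraries and are no second test. edgeR called 0 genes between injured *yap1* and injured *wwtr1* Crispants (1158 genes, 5.52%, at an unadjusted p under 0.05), and 0 between injured *wwtr1* Crispants and injured WT (1047 genes, 4.99%).

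**Figure D3:**
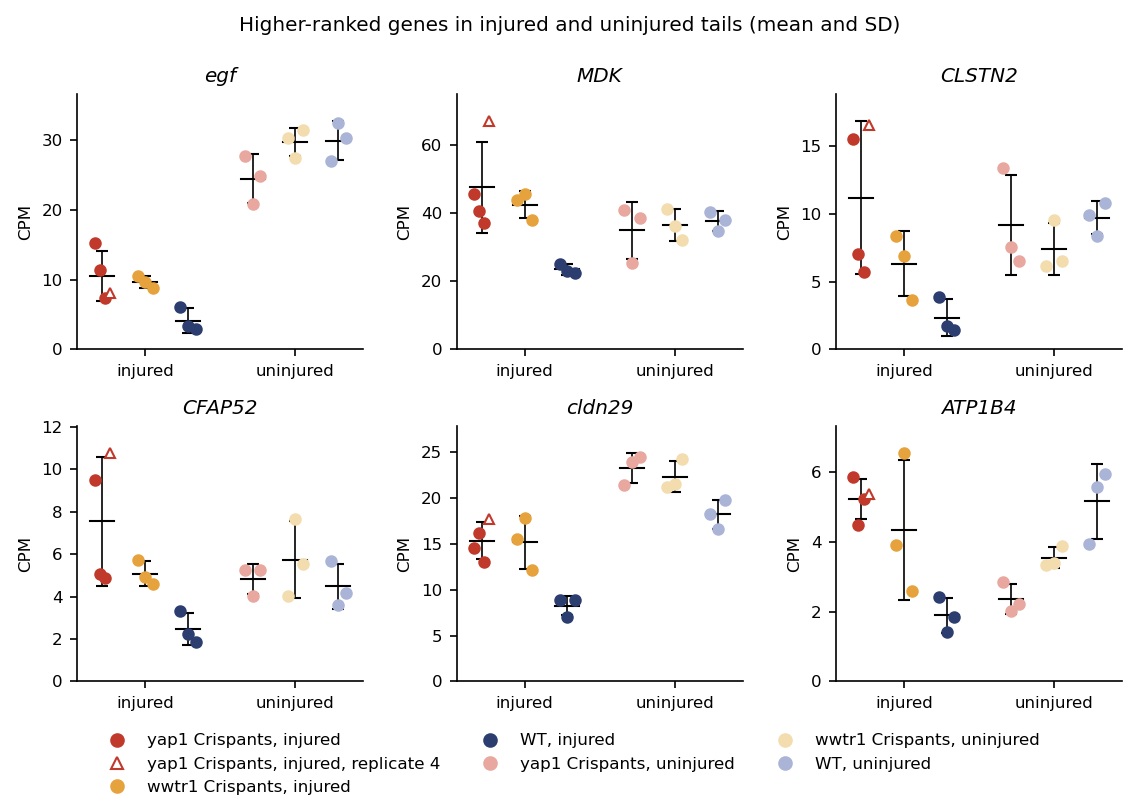
CPM of 6 of the 10 higher genes in all 19 libraries, with injured groups left and uninjured groups right, and within each the order *yap1* Crispants, *wwtr1* Crispants, WT. Points are libraries, the open triangle is injured *yap1* replicate 4, the line is the mean and the bar 1 SD. Injured WT has the lowest mean of the 6 groups for all 6 genes, and the uninjured WT level is above the injured WT level in each panel. The genes were chosen for injured WT libraries below all injured *yap1* libraries, so a low injured WT mean was favoured in advance. No set rule picked these 6 from the 10.

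Notochord genes were higher in most injured *yap1* libraries, with a median log2 fold change of 1.16 over the 22 tested notochord markers (0.01 over all genes) and 1.19 without replicate 4. There were 13 with an unadjusted p under 0.05, all higher, beside a background of 6.42% of all genes. In injured *wwtr1* Crispants against the same WT libraries the list's median was 0.69. *tbxta*, the Brachyury transcription factor of the notochord, was at 122, 139, 137 and 91.5 CPM in *yap1* Crispants, against 93.6, 40.0 and 30.0 CPM in WT. WT replicate 1 was level with *yap1* replicate 4, and the log2 fold change was 1.16 ± 0.32 (adjusted p = 0.333). *SHH* (ENSDARG00000068567), a signalling ligand of notochord and fin, was at 68.4, 56.2, 49.9 and 59.4 CPM against 53.7, 17.0 and 16.9 CPM in WT, with a log2 fold change of 1.00. Without WT replicate 1 it was 1.79 and passed, with an adjusted p of 0.0202. *COL9A2*, a collagen of the notochord sheath, was at 153, 142, 118 and 73.8 CPM against 84.2, 25.9 and 25.1 CPM in WT (log2 1.43). The proteoglycan gene *epyc* kept its groups apart in all libraries, at 98.1, 118, 89.4 and 156 CPM against 68.2, 35.8 and 29.7 CPM in WT (log2 1.37 ± 0.31, adjusted p = 0.277). Without WT replicate 1 the list's median was 1.80, and *SHH*, *tbxta*, *COL9A2* and *epyc* were among the 37 genes called. That library was left out for its high notochord level. The higher median and these calls follow from that choice and add no support.

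Skeletal muscle genes moved with the notochord genes between libraries. Summed over the notochord markers, the level was 3254, 2904, 2422 and 1140 CPM in injured *yap1* Crispants, against 1953, 713 and 623 CPM in injured WT. Summed over the muscle markers, it was 2896, 1302, 1278 and 537 CPM in *yap1* Crispants, against 1025, 313 and 271 CPM in WT. In both lists WT replicate 1 lay above *yap1* replicate 4, and the other *yap1* libraries lay above all WT libraries. The muscle list's median log2 fold change was 1.52 over 24 genes and 1.87 without replicate 4. It was 2.66 without WT replicate 1, a library left out for its notochord and muscle level. At an unadjusted p under 0.05 there were 13 higher and 0 lower genes, beside 6.42% of all genes higher, and 19 and 0 without replicate 4, beside 6.29%. *smyhc1*, the slow myosin heavy chain, was at 694, 139, 153 and 31.2 CPM against 130, 28.3 and 16.4 CPM in WT (log2 2.12 ± 0.90, adjusted p = 0.543). *actc1b*, a sarcomeric actin, was at 685, 375, 321 and 173 CPM against 293, 69.3 and 50.8 CPM in WT (log2 1.496). The muscle list's median in injured *wwtr1* Crispants against the same WT libraries was 1.68. In bulk tails more cells of a type and more RNA per cell cannot be told apart, and the share of muscle or trunk tissue in the cut tails was not measured.

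Fin mesenchyme and matrix genes had a median of 0.50 over 32 genes (0.61 without replicate 4, 0.70 without WT replicate 1), with 6 higher and 0 lower at an unadjusted p under 0.05, beside 6.42% of all genes higher. Their summed level was 54516, 41095, 39544 and 68509 CPM in injured *yap1* Crispants, against 32508, 34156 and 30292 CPM in injured WT, without overlap. *COL12A1* (ENSDARG00000019601), a fibril-associated collagen, was at 24.4, 9.27, 8.83 and 11.8 CPM against 8.23, 2.86 and 4.41 CPM in WT (log2 1.40). The cross-linking enzyme gene *LOXL2* was at 55.5, 20.7, 20.8 and 19.0 CPM against 19.3, 13.4 and 5.75 CPM in WT, overlapping by replicate 4. *TNC* (ENSDARG00000021948), the matrix protein tenascin C, was at 709.7, 183, 253 and 730.3 CPM against 235, 215 and 112 CPM in WT (log2 1.32 ± 0.42, adjusted p = 0.397). Its difference rested on *yap1* replicates 1 and 4. Epidermis genes had a median of -0.16 (-0.38 without WT replicate 1), with 0 of 21 at an unadjusted p under 0.05, and their summed levels overlapped.

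**Figure D4:**
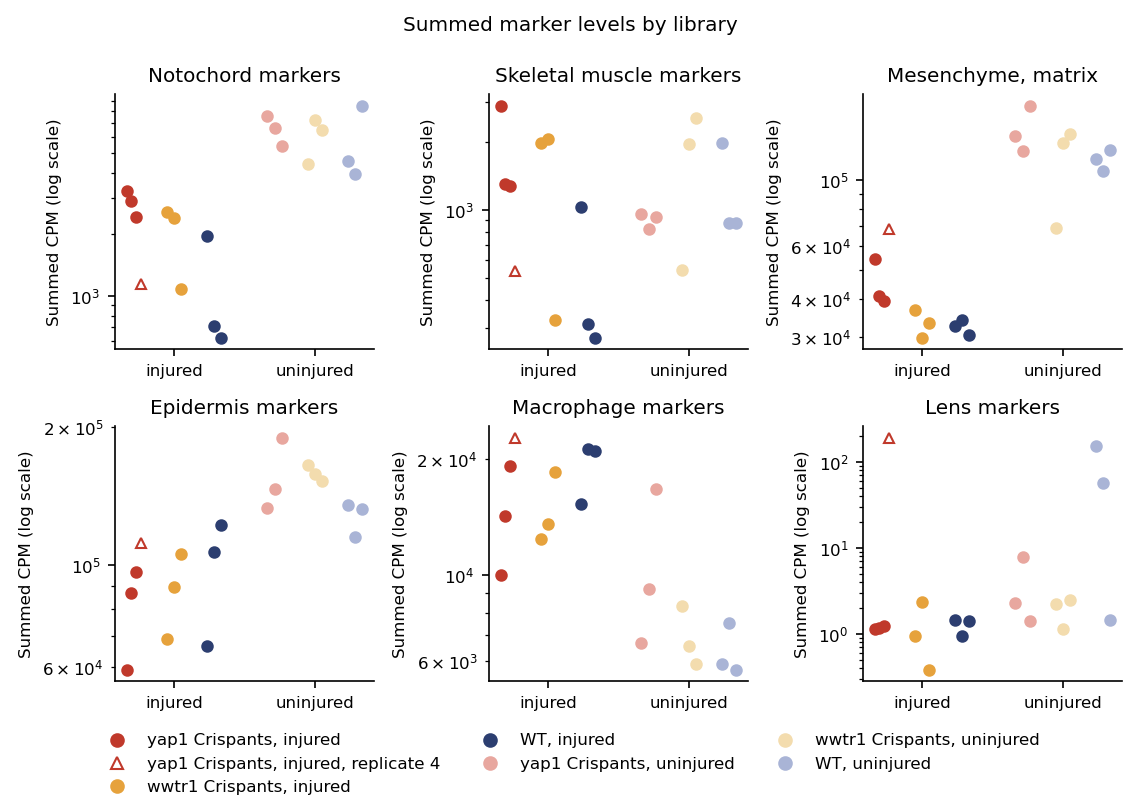
Summed CPM on a log axis over 6 marker lists in all 19 libraries, with injured groups left and uninjured groups right, and within each the order *yap1* Crispants, *wwtr1* Crispants, WT. Each point is 1 library, drawn in the order of the replicate numbers, and the open triangle is injured *yap1* replicate 4. WT replicate 1 is the highest injured WT library for notochord (1953 CPM) and muscle (1025 CPM), and replicate 4 is the highest library of all for lens markers (191 CPM).

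Wound signalling and blastema genes had a median of 0.36 over 49 genes, 0.18 without replicate 4 and 0.50 without WT replicate 1. At an unadjusted p under 0.05, 7 were higher and 0 lower, beside 6.42% of all genes higher, and these included the ligand genes *INHBA* and *SHH*, the transcription factor gene *JUN* and the matrix genes *hapln1a* and *TNC*. *hapln1a*, which links hyaluronan to proteoglycans, was at 506, 213, 276 and 172 CPM in *yap1* Crispants, against 153, 120.2 and 62.9 CPM in WT (log2 1.38 ± 0.34, adjusted p = 0.308). *INHBA* (ENSDARG00000012671), the activin A subunit needed for fin regeneration, was at 4.74, 2.26, 2.51 and 12.5 CPM against 2.06, 1.37 and 0.971 CPM in WT (log2 1.90, and 1.11 without replicate 4). Both had no overlap. DESeq2 called both on all libraries, and without replicate 4 it called *hapln1a* (adjusted p = 0.0065) and not *INHBA* (adjusted p = 0.3). *JUN* was at 89.6, 48.9, 22.5 and 67.9 CPM against 29.9, 16.4 and 25.2 CPM in WT, with replicate 3 inside the WT range (log2 1.26).

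Most macrophage markers had fold changes below 0, but few differed by their own test. Their median was -0.16 over 27 genes, 6 of which lay above 0 where 51.1% of all genes did, with 1 higher and 1 lower at an unadjusted p under 0.05. Their summed level was 9999, 14190, 19104 and 22639 CPM in injured *yap1* Crispants, against 15262, 21215 and 20874 CPM in injured WT. Replicate 4 was the highest and replicate 1 the lowest of the 7 libraries. The genes *CORO1A*, *IRF8* and *MPEG1* given below were a small part of this sum, so it need not follow them or the number of macrophages. The summed level of the epidermis markers rose in the same order over the *yap1* libraries. The macrophage median in injured *wwtr1* Crispants against the same WT libraries was also -0.16. Other lists leaned the same way in injured *yap1* Crispants, with 3 of 21 epidermis and 5 of 29 cell cycle genes above 0. *CORO1A*, an actin regulator of leukocytes, was at 20.02, 26.5, 23.9 and 18.2 CPM in *yap1* Crispants, against 34.2, 44.3 and 33.5 CPM in WT (log2 -0.75 ± 0.23, adjusted p = 0.397), without overlap. It was 1 of 2 genes on the list below all WT libraries, beside 2.46% of all genes, while 0 lay above, beside 3.19%. The gene that was higher at an unadjusted p under 0.05 overlapped WT. It is not named, so the genes given here show the lower side only. Without replicate 4 the macrophage median was -0.36, and 7 of 27 genes lay below all WT libraries where 4.84% of all genes did. *IRF8*, the transcription factor of macrophage fate, was 1 of these 7, at 8.57, 8.58 and 8.14 CPM and at 15.5 CPM in replicate 4, against 9.93, 11.9 and 10.0 CPM in WT.

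*MPEG1* (ENSDARG00000055290), the perforin-like gene used to mark macrophages, was at 62.2, 67.0, 46.2 and 135 CPM in *yap1* Crispants, against 89.1, 85.0 and 55.6 CPM in WT, with overlap. Neutrophil markers had a median of -0.09 (-0.26 without replicate 4, -0.20 without WT replicate 1), with 0 of 11 at an unadjusted p under 0.05. Inflammatory cytokines, chemokines and enzymes had a median of 0.25 over 27 genes and -0.02 without replicate 4, so the list's sign rested on that library. *cxcl18b*, a neutrophil-attracting chemokine, was at 7.65, 8.32, 4.63 and 5.99 CPM against 3.92, 4.43 and 2.96 CPM in WT (log2 0.82), and was the single inflammatory gene without overlap. The cytokine gene *il1b* was at 1.21, 0.908, 1.18 and 3.57 CPM against 2.07, 1.67 and 1.25 CPM in WT, with replicate 4 above and the others below. The 13 immune genes that the study had labelled from these libraries had a median of -0.20 (-0.36 without replicate 4, -0.10 without WT replicate 1), with 3 above 0, 1 higher and 1 lower at an unadjusted p under 0.05. Their median in uninjured *yap1* Crispants against uninjured WT was 2.34. The list's summed level there was 5.79, 10.6 and 23.8 CPM in *yap1* replicates 1 to 3, against 4.44, 6.81 and 6.32 CPM in WT. Replicate 1 thus lay within the WT range and replicate 3 was the highest. As the genes were picked on these samples, neither median is independent evidence.

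Of the remaining lists, the medians were 1.19 for 19 neural and glial markers, with 8 higher at an unadjusted p under 0.05 where 6.42% of all genes were, 1.16 for 15 pigment cell markers with 3 higher, and 0.62 for 14 endothelial markers with 1 higher. Without replicate 4 they were 0.64, 1.39 and 0.88, with 5, 2 and 6 genes higher, beside 6.29% of all genes. In the same order 2, 2 and 0 genes lay above all WT libraries, beside 3.19% of all genes. Without replicate 4 it was 2, 4 and 7, beside 6.56%. In injured *wwtr1* Crispants against the same WT libraries the medians of these 3 lists were 0.95, 1.01 and 0.47. The summed level of the neural and glial markers overlapped. It was 234, 265, 275 and 464 CPM in injured *yap1* Crispants, against 307, 258 and 447 CPM in injured WT. *OLIG2*, a transcription factor of motor neuron and oligodendrocyte precursors, was at 1.14, 0.908, 0.256 and 0.998 CPM in *yap1* Crispants, against 0.176, 0.0132 and 0.0249 CPM in WT, where replicates 2 and 3 lay under the floor of 3 counts. Interferon-stimulated genes had a median of -0.23, with 5 of 19 above 0, and cell cycle genes of -0.28, with 5 of 29 above 0. Cell cycle genes stood at -0.32 without replicate 4 and at -0.18 without WT replicate 1, and interferon-stimulated genes at -0.13 and -0.17. Injured *wwtr1* Crispants against the same WT libraries had medians of -0.44 for cell cycle genes and -0.02 for interferon-stimulated genes. At an unadjusted p under 0.05 cell cycle genes had 0 higher and 0 lower, and interferon-stimulated genes 0 higher and 1 lower. Complement genes (-0.14, with 2 higher), stress genes (0.07, with 1 higher) and p53 targets (-0.08, with 1 higher) had medians nearer to that of all genes, and those of complement genes and p53 targets were -0.01 and 0.00 without WT replicate 1. Of 14 complement genes, however, 4 lay above all WT libraries and 1 below, beside 3.19% and 2.46% of all genes. Without replicate 4 there were again 4 and 1, beside 6.56% and 4.84%.

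Markers of other tissues in part rested on single libraries. Liver markers had a median of -0.56 over 12 genes, and of -1.16 without replicate 4. In that fit 2 were lower at an unadjusted p under 0.05, beside 1.69% of all genes. Below all WT libraries lay 3, beside 4.84% of all genes. Heart muscle markers stood at 1.02, at 1.27 without replicate 4 and at 2.54 without WT replicate 1, and red blood cell markers at 0.51, 0.75 and 0.18. Germ cell markers stood at 0.84, at 1.22 without replicate 4 and at 1.41 without WT replicate 1, and exocrine pancreas markers at -0.15, -0.17 and -0.24. The sign of the photoreceptor markers (0.92) turned without replicate 4 (-0.79), and that of the intestine markers (0.23) turned both without replicate 4 (-0.17) and without WT replicate 1 (-0.20). No member of any list passed edgeR's thresholds, with 0 of 473 listed genes called and 82 at an unadjusted p under 0.05, where 8.25% of all genes were. DESeq2 called 11, all higher, where it called 0.574% of all genes higher and 0.0106% lower. These were 5 crystallin genes, *OLIG2*, *epyc*, *hapln1a*, *cyr61*, *INHBA* and *COL9A2*. Without replicate 4 it called only *OLIG2*, *hapln1a* and *COL9A2* of them.

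Genes that were raised in uninjured *yap1* Crispants were mostly higher in injured ones too. In uninjured tails 461 genes passed edgeR's thresholds as higher than in WT (2.2% of those tested) and 8 as lower (0.0381%), and that comparison shares no library with the injured one. In injured tails the median log2 fold change of the 461 was 0.62, beside 0.01 over all genes, and 420 (91.1%) lay above 0 where 51.1% of all genes did. At an unadjusted p under 0.05, 150 of them (32.5%) were higher and 0 were lower. Without replicate 4 the median was 0.48, with 408 above 0 and 90 higher. The 8 lowered genes had a median of -0.26, and 1 of them lay above 0. By library, the median of the 461 against the mean of injured WT was 0.79, 0.33, 0.00 and 0.76 in *yap1* replicates 1 to 4, against 0.06, -0.28 and 0.20 in the WT libraries. Replicate 3 thus did not carry the shift. In injured *wwtr1* Crispants these medians were -0.15, -0.01 and -0.44.

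**Figure D5:**
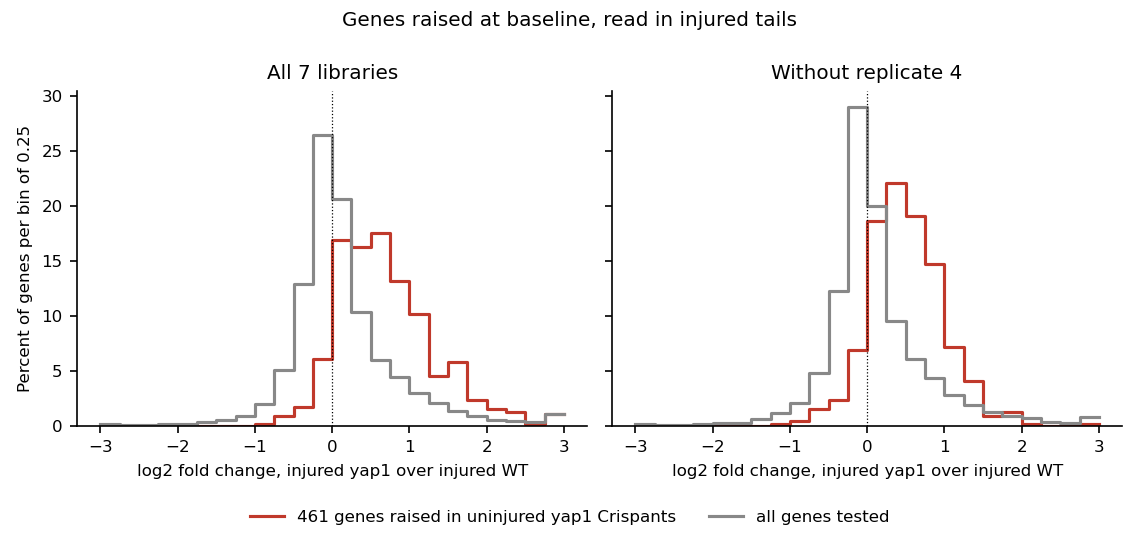
Distribution of the log2 fold change of injured *yap1* Crispants over injured WT for the 461 genes raised in uninjured *yap1* Crispants and for all genes tested, as percent of genes per bin of 0.25, with all 7 libraries left and without replicate 4 right. Values beyond 3 in either direction are counted in the outermost bins. The median of the 461 genes is 0.62 with all libraries and 0.48 without replicate 4, beside 0.01 and -0.01 for all genes.

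Among the 461, 38 (8.24%, beside 3.19% of all genes) had all injured *yap1* libraries above all injured WT libraries, and the genes named from here to the next paragraph were picked from them after their values were seen. Without replicate 4 the count was 42 (9.11%), beside 6.56% of all genes, a smaller gap to the background. *col1a1a*, the main fibrillar collagen of skin and fin, was at 19659.5, 8399, 7833 and 6655 CPM in injured *yap1* Crispants, against 6450.3, 3511 and 4273 CPM in injured WT. It was at 37967, 38063 and 50167 CPM in uninjured *yap1* Crispants, against 5487, 4032 and 15224 CPM in uninjured WT. The gap between genotypes in *col1a1a* was thus wider in uninjured tails. Those libraries chose the 461, so a wide gap there was favoured in advance for each gene named from them. *FZD7* (ENSDARG00000060004), a Wnt receptor, was at 25.2, 7.44, 5.35 and 15.9 CPM against 4.01, 1.65 and 3.06 CPM in injured WT (log2 2.22). Uninjured *yap1* Crispants had it at 23.4, 22.7 and 15.2 CPM, against 3.87, 4.096 and 4.73 CPM in uninjured WT. *OLIG3*, a neural transcription factor, was at 5.19, 0.803, 0.589 and 6.82 CPM against 0.457, 0.105 and 0.373 CPM in injured WT. *cnmd*, the cartilage glycoprotein chondromodulin, was at 84.3, 96.9, 54.2 and 42.8 CPM against 39.3, 16.1 and 28.1 CPM in injured WT. Over both states, 43 of the 20979 genes tested had all 7 *yap1* libraries above all 6 WT libraries, and 13 had them below. Of the 43, 22 were among the 461. The 461 were chosen on the uninjured libraries that also enter here, so this overlap was favoured in advance. *NPR3*, a natriuretic peptide receptor outside the 461, was 1 of the 43, at 91.7, 46.3, 48.8 and 76.8 CPM against 28.9, 20.4 and 21.3 CPM in injured WT.

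Genes of the injury response were taken from *wwtr1* Crispants, whose injured and uninjured libraries take no part in the comparison of *yap1* with WT. In those, 1314 genes were raised (6.26%) and 994 lowered (4.74%) by injury in edgeR. In injured *yap1* Crispants against injured WT, the 1314 raised genes had a median of -0.14, with 34.9% above 0 where 51.1% of all genes were. At an unadjusted p under 0.05, 17 were higher (1.29%) and 26 lower, beside 6.42% and 1.84% of all genes. Without replicate 4 the median was -0.20, with 26.2% above 0, beside 49.0% of all genes. The 994 lowered genes had a median of 0.17 with all libraries, with 62.5% above 0, beside 51.1% of all genes. Of them 149 were higher (15.0%) and 21 lower, beside 6.42% and 1.84% of all genes. By library, the raised genes stood at -0.22, -0.10, -0.15 and 0.04 against the mean of WT in *yap1* replicates 1 to 4, and the lowered genes at 0.12, 0.10, 0.10 and -0.01, so replicate 4 did not share either shift. The median of the lowered genes was 0.10 without *yap1* replicate 1, and 0.0657 when that set was chosen by adjusted p alone. By library, injured *wwtr1* Crispants stood at -0.08, -0.09 and -0.07 for the raised genes and at 0.05, 0.10 and 0.02 for the lowered genes. Those libraries took part in choosing both sets, so their values are given as a description. The summed level of the notochord markers was lower in every injured library than in every uninjured library, in all 3 genotypes.

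The genes high in replicate 4 alone set it apart most clearly. There were 50 genes with at least 5 CPM in replicate 4 and over 4 times the highest of the other 6 injured *yap1* and WT libraries, and 27 of them carried a crystallin symbol. *CRYBB1*, a structural crystallin of the lens, was at 51.6 CPM, *cryba1l1* at 40.9 CPM and *cryba1b* at 38.9 CPM in that library. The highest gene overall was *cd44a*, a hyaluronan receptor, at 326 CPM where the other 6 libraries had between 39.8 and 78.0 CPM. *FABP7*, a fatty acid binding protein of neural progenitors, followed at 132 CPM, *LECT2* (ENSDARG00000033227), a leukocyte chemotaxin, at 124 CPM, *SP6* at 71.2 CPM, *CLCN5* at 70.15 CPM, *slc30a6* at 63.5 CPM and *STMN1*, a tubulin-binding protein of neurons, at 55.3 CPM. The 27 crystallin genes also summed to 262 and 102 CPM in uninjured WT replicates 1 and 2, and to 0.354 CPM in uninjured WT replicate 3. Tails hold no lens, and where these transcripts came from was not tested.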

How the data were processed

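The authors trimmed reads with Trim Galore, aligned them to GRCz11 with BWA-MEM, counted them per Ensembl gene with HTSeq and deposited 1 table of raw counts. Tool versions and the use of strand in counting are not given in the sources used here, so overlapping, antisense and closely related genes are uncertain. Of 32520 gene IDs, 29201 had a symbol in the name table used.

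Counts were fitted in R 4.3.3 with edgeR 4.0.16, with all 19 libraries in 1 quasi-likelihood model of the 6 groups, after filterByExpr (20979 genes) and TMM scaling, and with 18 libraries for the fit without injured *yap1* replicate 4. Adjustment was by Benjamini-Hochberg over all genes tested, and p-values measure the spread between pools of 50 embryos. Fitted fold changes had 0.125 as edgeR's prior count. The authors' own tool, DESeq2 (version 1.42.0 here), and limma 3.58.1 (voom with sample quality weights) were alternatives, with a replicate block, other filters and scalings and each library left out in turn. The floor of 3 counts covers counting error only.

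Genes named were the 9 targeted in the screen, the 10 with the smallest p in each direction among genes with a mean of at least 1 CPM and no overlap, members of 28 gene lists, and the 10 highest of those high in replicate 4 alone. Others are said to have been picked after their values were seen. The members and lists were chosen with earlier results of these data known. The table deposited by the authors held no other columns. The fits were run on simulated counts with planted changes, as a check of the code. That simulation held no outlying library such as replicate 4, so it does not show how many true differences were missed here.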

Additional observations from a re-analysis of the deposited data

Results flagged for a closer look

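In the group of 4 injured *yap1* Crispants, 47 values were searched for a library that lay far from the other 3, by Dixon's ratio, and 5 were found. Chance gives about 1 in 20. The values were summed marker lists and a part of the named genes, so the 5 are no full count. Genes outside the search included *cd44a*, at 326 CPM in replicate 4 and between 39.8 and 47.4 CPM in the other 3. Replicate 4 stood apart for the summed lens markers, with 191 CPM where the median of the other 3 was 1.16 CPM, for the summed photoreceptor markers, with 8.43 CPM where it was 1.39 CPM, and for *LATS1*, with 49.7 CPM where it was 16.5 CPM. Replicate 1 stood apart for the summed pigment cell markers, with 460 CPM (459.6) where the median of the others was 129 CPM. Replicate 3 stood apart for *CTNNA2*, with 4.99 CPM where the median of the others was 2.68 CPM.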

How the results depend on the processing

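In place of edgeR's 0 DEGs, DESeq2 gave 165 with all libraries, 95 without *yap1* replicate 4 and 133 for the difference of effects between injured and uninjured tails. DESeq2 on only the 2 groups compared, added after the data were seen, gave 56 and, without replicate 4, 105, and limma's voom gave 9 without replicate 4 and 34 for the difference. With each library left out in turn, edgeR gave 0 to 37 DEGs, 0 to 71 without *yap1* replicate 4, and 0 to 266 for the difference. The highest counts came without injured WT replicate 1 (37 and 71) and without uninjured WT replicate 3 (266), while the difference gave 7 without uninjured *yap1* replicate 1 and 1 without injured *yap1* replicate 1. Listed genes called were 11 in DESeq2, 2 in DESeq2 on only the 2 groups, and 0 to 4 with libraries left out. The replicate block gave 0 DEGs in each comparison. Deviations of same-numbered *yap1* and WT libraries correlated at 0.57, 0.09 and 0.22 over all genes tested, and at 0.60, 0.11 and 0.25 over genes with a mean of at least 1 CPM. As 1 pair lay under 0.1 over all genes tested, the numbers were not taken as pairs. Each *yap1* library correlated best with the WT library of its number, while WT replicate 2 correlated best with *yap1* replicate 3.

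The median of the genes lowered by injury in *wwtr1* Crispants was 0.0657 when that set was chosen by adjusted p alone, and 0.10 to 0.20 with libraries left out. Genes high in replicate 4 alone numbered 117 at a minimum of 1 CPM and 33 at over 8 times. Of the genes named, 5 turned in sign, *LATS2* at 0.0101 in voom, *ccn2b* at -0.0173 in voom and -0.10 to 0.49 with libraries left out, *nf2b* at 0.095 with the replicate block and -0.29 to 0.10 with libraries left out, *ANKRD1* (ENSDARG00000076192) at -0.99 to 0.17 and *PAMR1* (ENSDARG00000103184) at -0.87 to 0.12. The causes were not tested. Depth limits genes under the floor of 3 counts, such as *OLIG2* in WT replicates 2 and 3.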
